A study of Homo sapiens with 6 samples.

Results

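The cytosolic ribosomal protein genes were examined in HCT-116 cells, an established human colorectal carcinoma line, after transfection with a GapmeR against the long noncoding RNA CASC9 (GapC9) or with a control GapmeR (GapNC). A member was any row of the deposited table in which a gene name had the form of a cytosolic ribosomal protein symbol (RPL or RPS with a number, RPLP0, RPLP1, RPLP2 or RPSA), and 80 of the 27918 rows met this rule. The rule used names only and no measured value. Members comprised 48 genes of the large ribosomal subunit and 32 of the small subunit. GapmeRs are short antisense oligonucleotides whose central DNA part lets RNase H cut the paired RNA, and both groups received 10 nM, with 3 libraries in each. RNA was taken 24 h after transfection according to the results of the study and 48 h according to its methods. Both groups are a single cell line with no other genetic change stated, and nothing in the labels says whether the 3 libraries of a group came from separate cultures. The p-values below therefore measure the spread between libraries, which may be technical.

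A ribosome contains 1 copy of most ribosomal proteins, arranged around the ribosomal RNAs of its large and small subunits. The small subunit reads the mRNA, and the large subunit forms the peptide bond. The genes are scattered over the genome, are transcribed at high level in growing cells, and have many processed pseudogenes, which are intronless copies of their mRNAs. Their mRNAs begin with a C followed by a run of pyrimidines, the 5′ terminal oligopyrimidine (TOP) motif, through which mTOR signaling and the RNA-binding protein LARP1 control their translation as a group.

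The start of transcription is shown for 8 members because the TOP run is the sequence feature these genes share. Each line gives 8 bases before and 20 bases from the start site listed by RefSeq (GRCh38.p14), 5′ to 3′ on the strand of the gene, with the unbroken run of C and T from the start site in capitals. RPL11 has 2 listed sites, and the one shown was picked by its run. RPSA, RPS6, RPL11, RPL24, RPL38 and RPLP2 have the run, as does RPS10, the one member whose row passed the adjusted test below. RPS27L, the member of lowest expression among those tested, does not.
RPSA: ccgcctgtCTTTTCCgtgctacctgcag
RPS6: agttggccCTCTTTTCCgtggcgcctcg
RPL11: tccgctttCTCTTCCTgctctccatcat
RPL24: gattctctCTTTCTTTTCgccatctttt
RPL38: gtctcgttCTTTTTCgtccttttccccg
RPLP2: ggcgccttCCTTTTCCTCCCTgtcgcca
RPS10: tgctccttCCTTTCCagccccggtaccg
RPS27L: tgccgagcgcagatcgcttgcagcttgc

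In the order shown, these windows lie at chr3:39406712-39406739 (plus strand), chr9:19380217-19380244 (minus), chr1:23691798-23691825 (plus), chr3:101686699-101686726 (minus), chr17:74203670-74203697 (plus), chr11:809959-809986 (plus), chr6:34426050-34426077 (minus) and chr15:63157458-63157485 (minus). RefSeq start sites were at hand for 64 of the 80 members, with 79 sites in all. A C at the start site followed by at least 4 bases that were each C or T, read on the strand of the gene only, was found at a listed site of 46 of these 64 members (71.9%) and of 1404 of all 27305 genes with a site (5.14%). Allowing the same run to begin within 20 bases on either side of the site raised these shares to 95.3% of the members and 53.0% of all genes. A match describes these letters only. Among the 64 members, the 46 with the run at a listed site had a median level of 106 FPKM and a median log2 fold change of 0.02 between the groups. The 18 without it had a median level of 70.4 FPKM and a median log2 fold change of 0.11.

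FPKM are fragment counts scaled for transcript length and for the total of mapped fragments, so they compare genes per length and are relative to the rest of the library. In bulk RNA, fewer cells of one kind and less RNA per cell cannot be told apart. A change in ribosomal protein mRNA per cell that the rest of the mRNA shared would not be seen. CASC9, the target of the GapmeR, was listed at 0, 0.0108 and 0 FPKM in GapNC, whereas the libraries labelled GapC9 had 0.0528, 0.107 and 0 FPKM, so the directions below rest on the labels alone. The epithelial keratins KRT8 and KRT18 had mean levels of 363 to 398 FPKM in both groups, and of the 10 epithelial markers checked CDX1, VIL1 and LGR5 were below 0.1 FPKM. Of the 10 leukocyte, endothelial and fibroblast markers in the table, COL1A1 alone had a mean of at least 0.1 FPKM (1.23 ± 0.27 (SD, n = 3) in GapNC). The libraries held about 22.7 to 24.4 M fragments, taking the commonest low step between FPKM values as a single fragment. The step was searched for only within a preset range, which bounds this estimate in advance. GapNC replicate 1 stood apart from the others in GC content. Its deviations from the gene means had a Spearman correlation with GC of 0.616, against −0.376 to 0.0287 in the other 5 libraries. These correlations were taken over the 10117 rows of at least 1 FPKM with a known GC content.

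Ribosomal protein mRNAs were among the abundant transcripts of these cells. The median member had a mean of 102 FPKM over the 6 libraries, 77 members had a mean of at least 10 FPKM and 41 a mean of at least 100 FPKM. By comparison, the median of all 16028 rows tested was 2.38 FPKM. Members together held 7.47%, 6.80% and 6.58% of the summed FPKM in the GapNC libraries, in order of replicate number, and 7.62%, 7.53% and 7.10% in the GapC9 libraries. The groups overlapped, because GapNC replicate 1 lay above GapC9 replicate 3. The mean share was 6.95% ± 0.46 (SD, n = 3) in GapNC and 7.42% ± 0.28 in GapC9, a difference of 0.465 percentage points that was 0.725 without GapNC replicate 1 and 0.279 without GapNC replicate 3. Large subunit members accounted for 3.79% ± 0.26 and 4.08% ± 0.08 of the summed FPKM in the same order, and small subunit members for 3.16% ± 0.21 and 3.33% ± 0.20.

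Levels differed far more between members than between libraries. RPS2, a core protein near the mRNA channel of the small subunit, was highest, at 821, 717 and 655 FPKM in GapNC and 826, 721 and 698 FPKM in GapC9. RPL41, which encodes the smallest ribosomal protein, followed with 581, 494 and 332 FPKM in GapNC and 361, 578 and 530 FPKM in GapC9. RPS18, a protein of the head of the small subunit, had 544, 377 and 390 FPKM in GapNC and 494, 456 and 391 FPKM in GapC9. The libraries of the groups overlapped for all of them. The 10 most abundant members held 37.3% of all member FPKM, and the highest mean (740 FPKM for RPS2) was 178 times that of RPS27L (4.15 FPKM). Across the 79 tested members, level correlated weakly with coding length (Spearman 0.383) and with the number of transcripts listed in the row (Spearman −0.230), and these points share libraries and assembly.

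At the other end, RPL3L was the only member below the filter of 0.1 FPKM and was not tested. It encodes a paralogue of RPL3 that is known from heart and skeletal muscle, and it had 0.0698, 0.0155 and 0.0744 FPKM in GapNC and 0.0352, 0.103 and 0.0866 FPKM in GapC9. RPL3 itself, which lies at the peptidyl transferase center, had 330, 268 and 276 FPKM in GapNC and 295, 266 and 242 FPKM in GapC9. RPS29 had 7.55, 7.91 and 6.33 FPKM in GapNC and 8.04, 12.6 and 13.5 FPKM in GapC9. RPS13 (21.4 to 26.1 FPKM) and RPS10 (15.7 to 32.0 FPKM), both in rows joined with a neighboring gene, completed the 5 lowest members. No member was listed at 0 in any library.

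**Figure D1:**
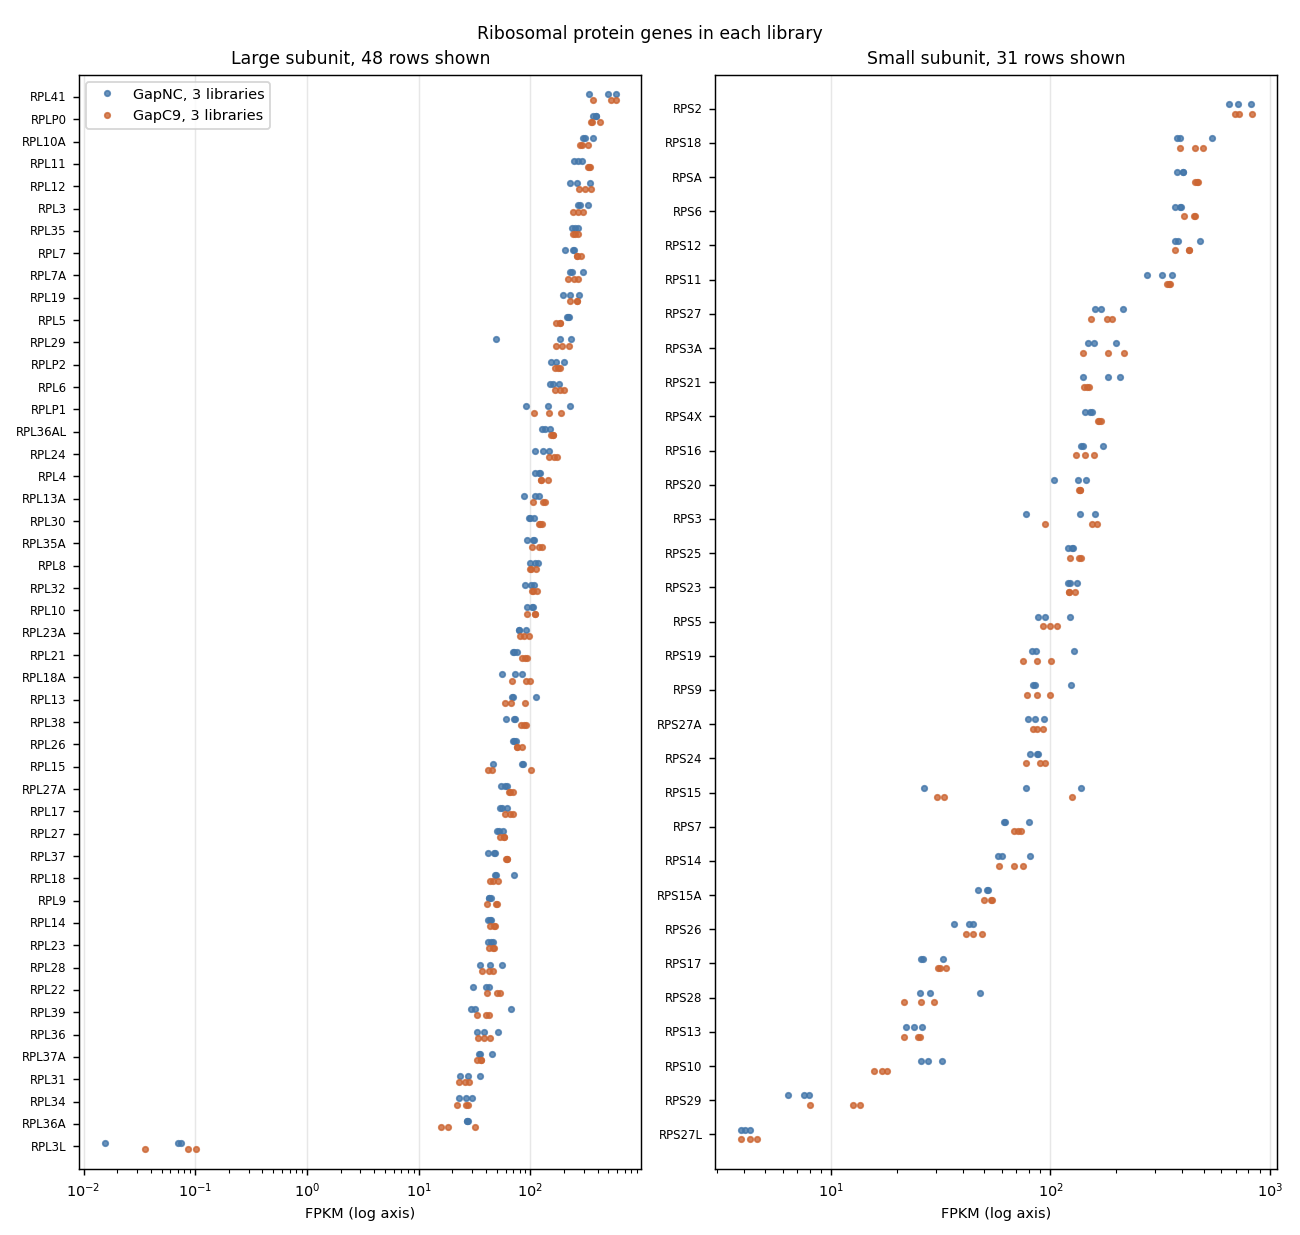
FPKM on a log axis (horizontal) of 79 of the 80 members, sorted by mean level, with 1 point for each library (blue, 3 GapNC libraries; orange, 3 GapC9 libraries) in separate panels with separate axes for the large and the small subunit. The mean of RPL3L lies below 0.1 FPKM and that of RPS2 at 740 FPKM, and the points of most members lie close together, with wide spreads in RPS15, RPL29, RPL15 and RPLP1.

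The comparison between the groups asks whether ribosomal protein genes change with the CASC9 GapmeR. Of the 79 members tested, 0 were higher and 1 was lower in GapC9 at an adjusted p under 0.05 (limma on log2(FPKM + 0.1), Benjamini-Hochberg adjustment over all 16028 rows), against 1.89% and 5.1% of all rows. At the thresholds of the study, a ratio of means of at least 2 or at most 0.5 with an unadjusted p under 0.05, 0 members were higher and 0 lower, against 2.1% and 4.32% of all rows (6.42% in either direction). The study took its p-values from edgeR, whereas those used here come from limma, so these are not the calls of the study. An unadjusted p under 0.05 was reached by 8 members with higher and 2 with lower values in GapC9, against 9.09% and 16.8% of all rows. In both directions together this was 12.7% of the members and 25.9% of all rows. Of all rows, 303 were higher and 817 lower at the adjusted threshold, 241 and 573 without GapNC replicate 1, and 16 to 35 and 17 to 70 without any other single library. The median log2 fold change of the members was 0.06, with quartiles of −0.06 and 0.18, whereas the median of all rows was −0.08, with quartiles of −0.42 and 0.24. Among rows with a mean of at least 10 FPKM the median was −0.02. The members' median was 0.13 without GapNC replicate 1, 0.11 without GapC9 replicate 3 and 0.0025 without GapNC replicate 3, and it was 0.17 after median scaling and 0.16 after GC correction.

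The estimates were precise for most members. The 95% interval of the fold change lay within a factor of 2 for 72 of 79 members and within a factor of 1.5 for 56. The 7 others were RPL15, RPL29, RPL36A, RPS10, RPS15, RPS28 and RPS29. Fold changes were positive for 51 members and negative for 28 (64.6% positive, against 43.6% of all rows). This split depends on the scaling, because median scaling raised the median of all rows by 0.11 and gave 65 positive and 14 negative members. The difference between the median of the members and that of all rows was 0.14 on the log2 scale with and without median scaling, 0.13 after GC correction and 0.06 after quantile normalization. It was 0.19 without GapNC replicate 1 and 0.09 without GapNC replicate 3.

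**Figure D2:**
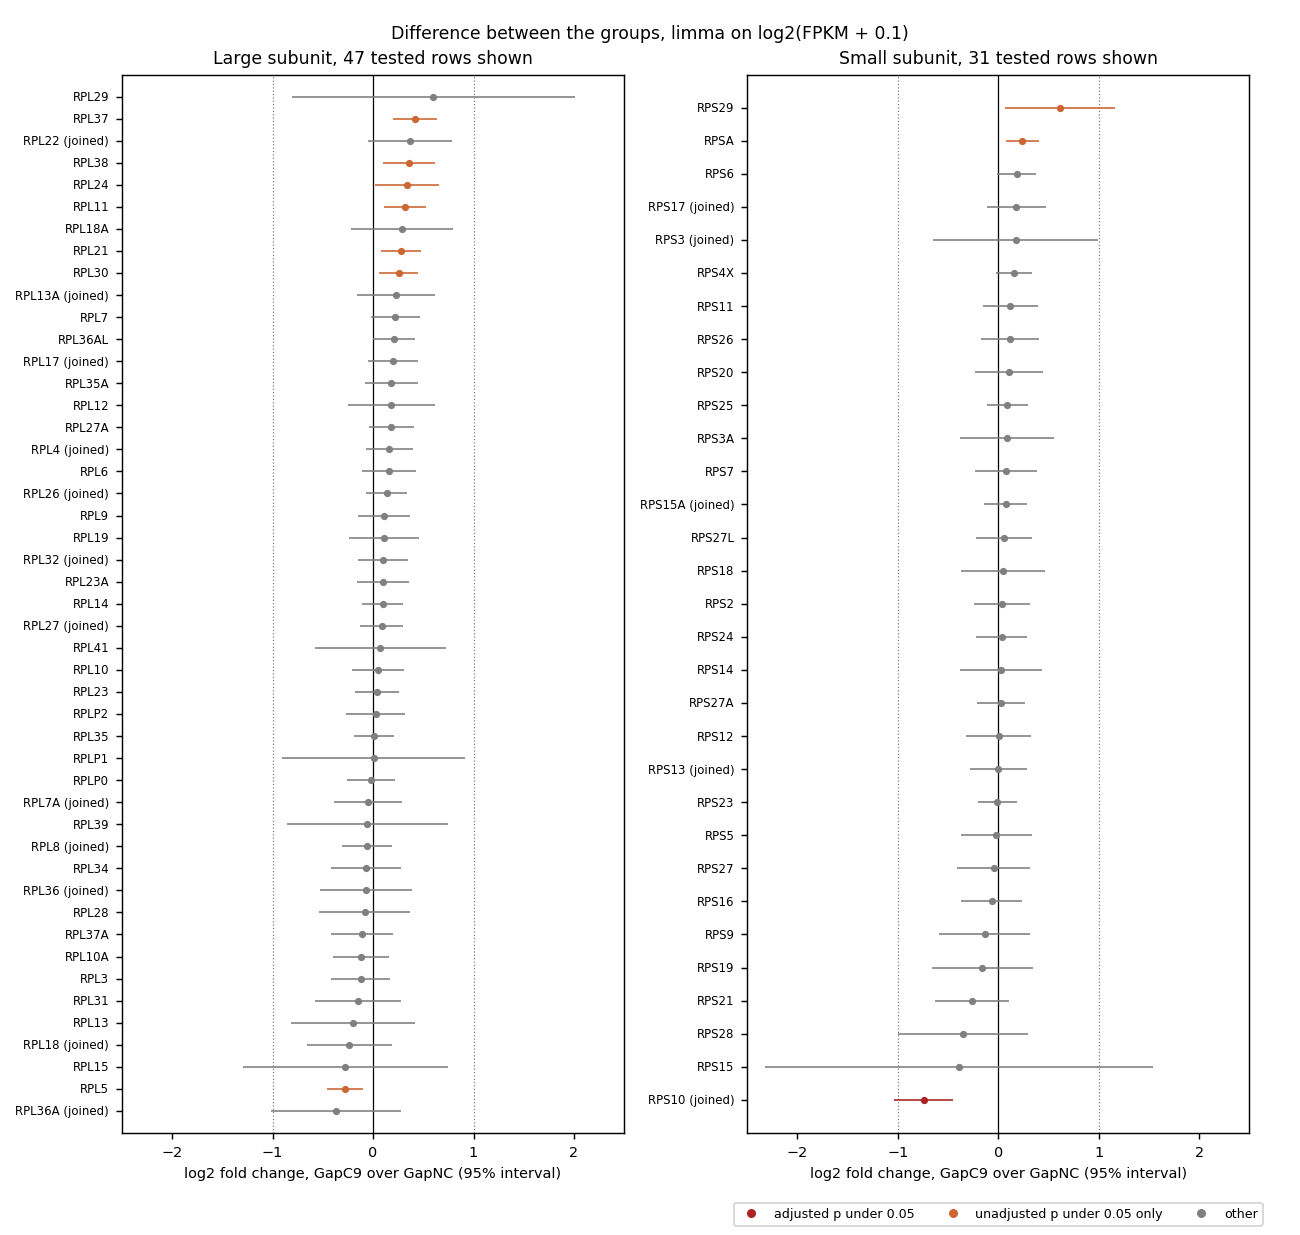
Log2 fold change of GapC9 over GapNC (horizontal axis) for 78 of the 79 members tested, with 95% intervals from limma on log2(FPKM + 0.1) and 3 libraries a group. The solid line marks no difference, and the dotted lines a 2-fold change. RPS10, in a joined row, is the single member past the adjusted threshold (red), orange marks an unadjusted p under 0.05 only, and the interval of RPS15 is the widest.

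The row that passed was a joined one. It carries the names NUDT3, RPS10-NUDT3 and RPS10, where NUDT3 is the neighboring gene for a diphosphoinositol polyphosphate hydrolase and RPS10-NUDT3 a read-through of both. The row had 32.0, 25.6 and 27.7 FPKM in GapNC and 17.0, 18.1 and 15.7 FPKM in GapC9. All GapC9 libraries lay below all GapNC libraries, with a log2 fold change of −0.74 (SE 0.12, adjusted p = 0.0299). Only 6 of its 11 listed transcripts belong to RPS10 (minus strand of chromosome 6, 34417454 to 34426125), and 5 belong to the other genes. Of the 50-base stretches of the RPS10 coding sequence, 87.6% recur in other genes, and 22 of these 23 genes are pseudogenes. The fall can therefore not be ascribed to RPS10 itself. Leaving out GapNC replicate 1 gave an adjusted p of 0.0387, and leaving out any other library gave values from 0.0742 to 0.105.

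RPL37, a zinc-binding protein of the large subunit, lay at the threshold. It had 47.5, 48.3 and 41.8 FPKM in GapNC and 61.7, 60.8 and 61.2 FPKM in GapC9, with no overlap and a log2 fold change of 0.42 (SE 0.09, 95% interval 0.20 to 0.64, adjusted p = 0.05003, just above the threshold). It passed under 6 of 18 alternatives, with adjusted p between 0.0255 and 0.168 over all of them. Its gene spans chr5:40825262-40835335 (minus strand).

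The 15 members with all GapC9 libraries above all GapNC libraries and the 2 with all below made up 21.5% of the members, against 34.2% of all rows (12.6% above and 21.6% below). In order of fold change, the 15 were RPL26, RPS4X, RPL4, RPL27A, RPS6, RPL36AL, RPL7, RPSA, RPL30, RPL21, RPL11, RPL24, RPL38, RPL37 and RPS29. RPS6, the ribosomal protein that S6 kinases phosphorylate, had 396, 388 and 369 FPKM in GapNC and 456, 450 and 406 FPKM in GapC9. Its log2 fold change was 0.19 (SE 0.08), with an adjusted p of 0.205. RPSA, which is both a component of the small subunit and known as a laminin receptor, had 379, 402 and 401 FPKM in GapNC and 467, 473 and 457 FPKM in GapC9. Its log2 fold change of 0.24 (SE 0.07) did not pass, with an adjusted p of 0.0870, although its libraries varied little within either group. It passed with a filter of at least 1 FPKM (adjusted p = 0.0468), after median scaling (adjusted p = 0.0499) and after GC correction (adjusted p = 0.0218).

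RPL38 is a small protein at the surface of the large subunit. It had 72.9, 71.4 and 59.9 FPKM in GapNC and 90.5, 87.3 and 82.8 FPKM in GapC9, with a log2 fold change of 0.36 (SE 0.11) and an adjusted p of 0.103. RPL24, which takes part in a bridge between the subunits, had 146, 129 and 110 FPKM in GapNC and 173, 164 and 146 FPKM in GapC9, so that the lowest GapC9 library lay just above the highest GapNC library. RPL21 had 71.7, 76.6 and 70.4 FPKM in GapNC and 88.9, 92.5 and 84.1 FPKM in GapC9, and RPL30 had 99.8, 108 and 98.0 FPKM against 126, 121 and 118 FPKM. Both are large subunit proteins whose groups did not overlap, with adjusted p of 0.102 and 0.114. RPL22, in a row that also names AL031847.1, had the third highest fold change among members of at least 10 FPKM. Its values were 30.4, 42.4 and 39.8 FPKM in GapNC and 40.6, 53.6 and 50.7 FPKM in GapC9, and they overlapped (log2 fold change 0.37, SE 0.17, adjusted p = 0.241).

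**Figure D3:**
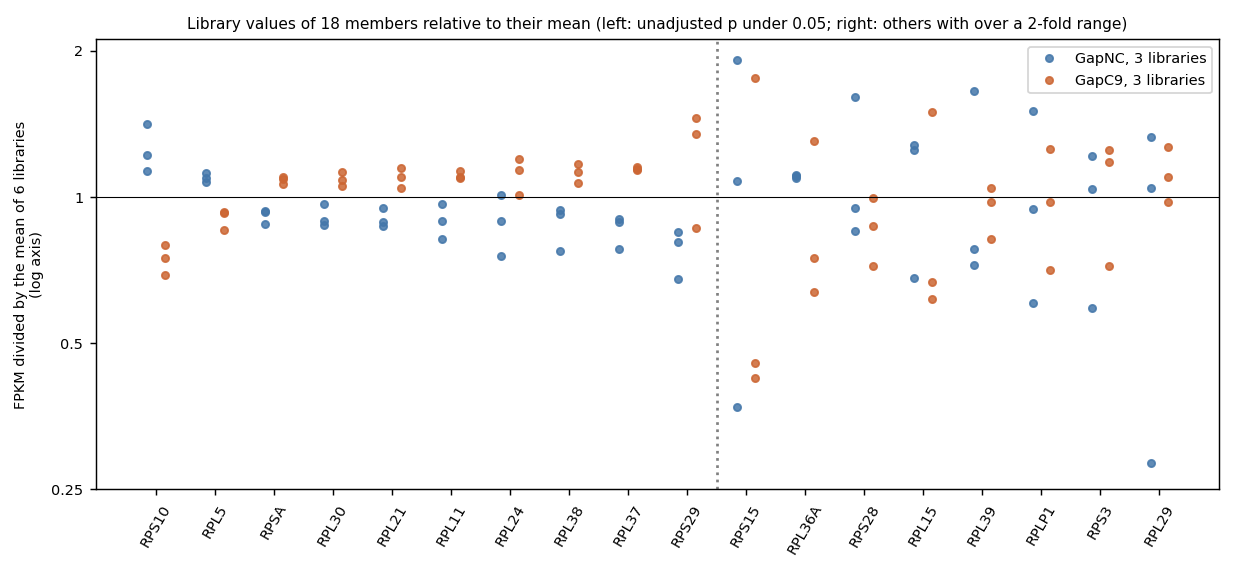
FPKM of each library divided by the mean of the 6 libraries (vertical log axis) for 18 members (horizontal axis), with blue points for GapNC and orange points for GapC9. Left of the dotted line are the 10 members with an unadjusted p under 0.05, of which 8 have higher values in GapC9. On the right are 8 other members whose highest library exceeds the lowest by over 2-fold, and whose groups overlap.

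RPL5 and RPL11 form the 5S ribonucleoprotein with the 5S ribosomal RNA, and, with RPL23, are known to bind MDM2 when they are free of ribosomes. RPL5 had 214, 224 and 218 FPKM in GapNC and 185, 185 and 171 FPKM in GapC9, all GapC9 libraries being lower. RPL11 went the other way, with 269, 292 and 247 FPKM in GapNC and 342, 331 and 331 FPKM in GapC9, all higher. The log2 fold changes were −0.28 for RPL5 (SE 0.07, adjusted p = 0.0794) and 0.32 for RPL11 (SE 0.09, adjusted p = 0.0833), and neither passed. RPL11 passed after median scaling (adjusted p = 0.0424) and after GC correction (adjusted p = 0.0284), whereas RPL5 passed under none of its 18 alternatives. RPL23 had 45.8, 44.4 and 41.8 FPKM in GapNC and 42.4, 46.4 and 46.9 FPKM in GapC9, and the 95% interval of its log2 fold change ran from −0.18 to 0.25. The coding sequences of RPL5 and RPL11 differ in how far they recur elsewhere, since 38.5% of the 50-base stretches of RPL5 occur in transcripts of other genes but 3.11% of those of RPL11.

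The P stalk of the large subunit, which recruits the elongation factors, is built of RPLP0 and the acidic proteins RPLP1 and RPLP2 on a base of RPL12. RPLP0, widely used as a reference gene, had 383, 361 and 386 FPKM in GapNC and 353, 348 and 420 FPKM in GapC9, with overlapping groups and a 95% interval of the log2 fold change from −0.25 to 0.22. RPLP2 had 199, 152 and 169 FPKM in GapNC and 186, 175 and 166 FPKM in GapC9, with an interval from −0.27 to 0.32. RPLP1 spread more than 2-fold within GapNC (227, 90.9 and 142 FPKM) and less within GapC9 (189, 107 and 147 FPKM), so its interval ran from −0.90 to 0.92. RPL12 had 341, 261 and 226 FPKM in GapNC and 350, 271 and 309 FPKM in GapC9. Of these 4 genes, 0 reached an unadjusted p under 0.05, a threshold that 25.9% of all rows reached.

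Members were also counted by whether the protein has a counterpart in bacteria, at an unadjusted p under 0.05, which 9.09% of all rows reached with higher and 16.8% with lower values. Of 18 conserved large subunit members, 1 had an unadjusted p under 0.05 with higher and 1 with lower values in GapC9, and the median log2 fold change was 0.10. Of the 28 large subunit members without a bacterial counterpart, 5 had higher and 0 lower values at that threshold, with a median of 0.08. The 15 conserved small subunit members had 2 higher and 0 lower, with a median of 0.04, and the 16 others had 0 higher and 1 lower, the joined RPS10 row, with a median of 0.03. In both directions together these were 11.1%, 17.9%, 13.3% and 6.25% of the members in the order given, each below the 25.9% of all rows. The median was 0.09 over the 47 tested large subunit members and 0.03 over the 32 small subunit members. The smaller of these changed sign without GapNC replicate 3 (−0.03) or without GapC9 replicate 1 (−0.01).

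Some members varied strongly between libraries of one group. The highest of the 6 libraries exceeded the lowest by 1.34-fold in the median member, but by over 2-fold in 10 members. This range includes any difference between the groups, and among the 10 the groups of RPS10 and RPS29 did not overlap. RPS15, a protein of the decoding region of the small subunit, was the most variable, with 137, 77.0 and 26.4 FPKM in GapNC and 126, 32.7 and 30.3 FPKM in GapC9. High and low libraries occurred in both groups, and the log2 fold change of −0.39 (95% interval −2.32 to 1.54) was 0.15 without GapNC replicate 1 and −1.05 without GapC9 replicate 1. RPL29, a basic protein of the large subunit, had 232, 182 and 49.5 FPKM in GapNC and 222, 193 and 171 FPKM in GapC9. Its log2 fold change of 0.60, the highest among members of at least 10 FPKM, rested on the low GapNC replicate 3 and was −0.08 without it. RPL15, a core protein of the large subunit, had 86.6, 84.5 and 46.0 FPKM in GapNC and 45.0, 41.7 and 101 FPKM in GapC9. RPS3, an entry site protein of the mRNA channel whose row also names SNORD15A, had 159, 136 and 77.4 FPKM in GapNC and 164, 155 and 94.7 FPKM in GapC9, so that replicate 3 was lowest in both groups. RPS23, by contrast, differed by at most 1.10-fold over the 6 libraries and RPL35 by 1.12-fold.

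Paralogous pairs were unequal in level, and no member of a pair passed the adjusted test. RPS27 had 215, 159 and 170 FPKM in GapNC and 181, 191 and 153 FPKM in GapC9. Its paralogue RPS27L, a known p53 target, had 3.86, 4.24 and 4.06 FPKM in GapNC and 4.25, 4.60 and 3.87 FPKM in GapC9, with a 95% interval of the log2 fold change from −0.22 to 0.34. RPL36AL, whose row lists a single transcript, had 135, 149 and 128 FPKM in GapNC and 161, 154 and 160 FPKM in GapC9. All GapC9 libraries were higher, with a log2 fold change of 0.21 (SE 0.09, adjusted p = 0.198). Its paralogue RPL36A, in a row joined with HNRNPH2, had 27.2, 26.9 and 27.4 FPKM in GapNC and 32.2, 15.7 and 18.5 FPKM in GapC9, with a log2 fold change of −0.37 (SE 0.27) that cannot be ascribed to RPL36A alone. RPL10, which completes the large subunit late in its assembly, had 92.5 to 106 FPKM in GapNC and 93.3 to 111 FPKM in GapC9. RPL39, at the exit tunnel, ranged from 29.5 to 67.2 FPKM in GapNC and from 33.3 to 42.4 FPKM in GapC9. No row carried the names of their paralogues RPL10L and RPL39L.

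Genes that are mutated in Diamond-Blackfan anemia or fused to ubiquitin were fixed for description whatever their values. RPS19, the member most often mutated in that anemia, had 128, 86.3 and 82.7 FPKM in GapNC and 101, 87.3 and 74.9 FPKM in GapC9, with a log2 fold change of −0.16 (SE 0.20). RPS27A, made as a fusion with ubiquitin, had 85.3, 78.9 and 93.7 FPKM in GapNC and 82.9, 92.5 and 86.4 FPKM in GapC9, and its 95% interval ran from −0.22 to 0.26. The groups overlapped for both genes. Of 7 further rows for genes that belong to the ribosome or resemble its proteins but fell outside the naming rule (among them FAU, RACK1, RPL22L1, RPL26L1 and a pair of rows for RPL7L1), 0 reached an unadjusted p under 0.05, against 25.9% of all rows.

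Rows that join several genes or share sequence limit what can be said of single members. The names of several genes were joined in 18 member rows, and 4 of these join a member with a small nucleolar RNA (snoRNA) from its own introns. Among the most abundant were RPL7A with SNORD36C (216 to 298 FPKM over the 6 libraries), RPS3 with SNORD15A, RPL4 with SNAPC5 (109 to 143 FPKM), and RPL13A with FLT3LG and ALDH16A1 (87.7 to 136 FPKM). The joined rows had a median log2 fold change of 0.08 and the 62 rows of a single name, of which 61 were tested, one of 0.05. Some 50-base stretch of the coding sequence recurred in an annotated pseudogene for 76 of the 80 members. At least 50% of the stretches recurred in another gene for 37 members, and RPL21 shared stretches with 61 pseudogenes, the highest number. A read-through gene joined in the same row also counted as another gene. How the deposited values assign such reads is not stated. Across the 79 tested members, the share of recurring stretches and the log2 fold change had a Spearman correlation of 0.103.

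The table has 286 rows that name a ribosomal protein pseudogene, of which 92 passed the filter. Rows that join a pseudogene with another gene were counted in full, so the values below include signal of coding genes. They held 0.978% ± 0.062 (SD, n = 3) of the summed FPKM in GapNC and 1.07% ± 0.08 in GapC9. Their median log2 fold change was 0.23, and 3 were higher and 2 lower at an adjusted p under 0.05 (5.43%, against 6.99% of all rows). Of these 5, the changes were largest in a joined row of RPL17P50 and P4HA1 (log2 fold change 0.98, SE 0.12, adjusted p = 0.0192), in a joined row of RPL35P6 and PSD3 (−0.89, SE 0.13, adjusted p = 0.0253) and in RPSAP8 (0.75, SE 0.15, adjusted p = 0.0415), a pseudogene of RPSA. The 78 mitochondrial ribosomal protein genes, a separate set of ribosome genes, had a median log2 fold change of −0.01, with 2 higher and 2 lower at an adjusted p under 0.05 (5.13%). The 3 largest of these changes were in a row joining MRPS28 with TPD52 (−0.67, SE 0.13, adjusted p = 0.0426), in MRPL32 (0.47, SE 0.10, adjusted p = 0.0446) and in MRPL47 (0.46, SE 0.09, adjusted p = 0.0448).

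Many members carry snoRNAs, guides of ribosomal RNA modification, in their introns. The annotation places 60 snoRNAs inside 28 of the members, and 10 of them have a row of their own in the table. SNORA65, in RPL12, had 1.23, 1.16 and 1.31 FPKM in GapNC and 21.5, 14.96 and 16.1 FPKM in GapC9. SNORA66, in RPL5, had 1.08, 1.19 and 1.89 FPKM in GapNC and 4.49, 5.40 and 10.2 FPKM in GapC9. SNORD15B, in RPS3, had 0.0848, 0.0254 and 0.0454 FPKM in GapNC and 0.707, 0.539 and 0.974 FPKM in GapC9. All GapNC values of SNORD15B lay below the filter of 0.1 FPKM, so the row was tested only because of GapC9. Its fold change and adjusted p are therefore descriptions only. All 3 rose in GapC9, with log2 fold changes of 3.71 (SE 0.16, adjusted p = 0.00165), 2.14 (SE 0.36, adjusted p = 0.0311) and 2.45 (SE 0.28, adjusted p = 0.0166). Their host mRNAs did not pass, with log2 fold changes of 0.18 for RPL12, −0.28 for RPL5 and 0.17 for RPS3. Of the 9 snoRNA rows tested, these 3 passed as higher and 6 did not pass. Over all rows, 1.89% passed as higher and 6.99% in either direction. The 3 include SNORD15B, which entered the test only through GapC9, so their share of the 9 rows cannot be compared with these percentages. These rows are 73 to 146 bases long, shorter than the insert size given in the labels, and the source of their reads in poly(A) RNA was not tested.

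Differences between the groups also moved with GC content. GC here is the mean over the transcripts listed in a row and ranged from 41.8% to 65.5% among the members. The Spearman correlation between GC and the log2 fold change was −0.275 over the 79 members and −0.330 over the 10117 rows of at least 1 FPKM with a known GC content. It was −0.034 over the members without GapNC replicate 1. After GC correction it was 0.222 over the members, so the correction reversed the sign of the trend and did not remove it. The 40 members of lower GC had a median log2 fold change of 0.10, and the 39 of higher GC one of 0.01. Without GapNC replicate 1 these medians were 0.16 and 0.12, and after GC correction 0.15 and 0.16. In GapNC replicate 1 the members of higher GC lay 0.25 above their means on the log2 scale and those of lower GC 0.02 below. Genes and members share the same 6 libraries, so these values are descriptions.

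Genes that act on ribosomal proteins or their mRNAs were described from lists written by hand. Of 17 genes around TOP mRNA translation, 0 rose and 3 fell at an adjusted p under 0.05 (17.6%, against 6.99% of all rows), all of them genes of mTOR signaling. At an unadjusted p under 0.05, 3 of the 17 were higher and 5 lower (47.1%, against 25.9% of all rows). Log2 fold changes over the 17 ran from −1.32 to 2.20. With a replicate block in the fit, 0 of all rows passed the adjusted threshold, these genes included. RPTOR, the scaffold of mTOR complex 1, had 8.53, 9.69 and 8.53 FPKM in GapNC and 3.41, 3.11 and 4.09 FPKM in GapC9 (log2 fold change −1.32, SE 0.14, adjusted p = 0.0159). TSC2, an inhibitor of that complex, fell by 1.02 on the log2 scale (SE 0.15, adjusted p = 0.0269), and the kinase MTOR fell by 0.72 (SE 0.10, adjusted p = 0.0239). LARP1, which binds the TOP motif, had 33.1 to 35.9 FPKM in GapNC and 21.9 to 34.1 FPKM in GapC9 and did not pass (adjusted p = 0.431). Of 19 other known TOP mRNAs 0 passed the adjusted threshold, with a median log2 fold change of 0.10, and of 12 elongation and release factor rows 0 passed. Among ribosome assembly factors, RIOK2 (0.63, SE 0.13, adjusted p = 0.0473) and LSG1 (0.72, SE 0.09, adjusted p = 0.0192), which act late on the small and the large subunit, rose, whereas RRP9 (−0.95, SE 0.19, adjusted p = 0.0413) and RCL1 (−0.70, SE 0.11, adjusted p = 0.0290) fell. These were 3 of 35 small subunit (8.57%) and 1 of 48 large subunit assembly rows tested (2.08%), against 6.99% of all rows. NOLC1 (0.43, SE 0.09, adjusted p = 0.0439) was the 1 of 12 snoRNP rows that passed (8.33%, against 6.99% of all rows). IPO9, an importer of ribosomal proteins (−0.48, SE 0.09, adjusted p = 0.0366), was the 1 of 16 chaperone and import rows (6.25%). Of 22 RNA polymerase I rows, 0 passed.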

How the data were processed

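Poly(A) RNA of 6 HCT-116 libraries (3 GapNC, 3 GapC9) were sequenced at both fragment ends. HISAT alignments were summarized by the authors with StringTie, and the deposited values are FPKM per gene or locus rather than read counts. The submitters' processing notes name Bowtie 0.12.2, HISAT2 2.0, StringTie 1.3.0 and a mouse build (mm8). The human build, the use of strand and the way a row combines its transcripts are not given in the sources used here. Other columns of the table hold the authors' own fold changes and p-values and were not used, and 0 columns of sample values were left unmapped.

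FPKM were used as deposited. Differences were fitted in R 4.3.3 with limma 3.58.1 (lmFit, eBayes with trend) on log2(FPKM + 0.1) over the 16028 of 27918 rows with a mean of at least 0.1 FPKM, 6 libraries in one fit, with Benjamini-Hochberg adjustment over all rows. Fold changes on this scale understate changes of low genes. SDs come from 3 FPKM values and standard errors and 95% intervals from limma. The number of libraries and, for rows near the filter, the few fragments behind a value limit the precision. Positions, GC content (99.3% of rows) and coding sequences came from GENCODE 29 (GRCh38), matched through the transcripts in the table, and start sites from RefSeq. Tables and figures were made with data.table (1.17.8), Python 3.11.15, pandas 2.3.3 and matplotlib 3.10.9. The fit was tested on simulated data.

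Members, gene lists and tests were chosen with earlier results of these data known. Named were members past an adjusted p of 0.05, the 5 highest and 5 lowest in level, the 3 highest and 3 lowest fold changes of at least 10 FPKM, P stalk genes, RPL5, RPL11 and RPL23, paralogue pairs, the 5 most abundant joined rows (1 is not reported here), RPSA, RPS6, RPS27A and RPS19. Members with an unadjusted p under 0.05 or a wide spread and RPS23 and RPL35 were named after their values were seen. Genes outside the members were named past an adjusted p of 0.05, up to 3 a list by size of change. Keratins, COL1A1 and LARP1 were named for context. The alternatives were pseudocounts of 1 and 0.01, a filter of at least 1 FPKM and none, median scaling, quantile normalization, a GC correction (lowess, span 0.3), rescaling to the sum of all other rows, a replicate block, limma with robust variances or with no trend, joined rows left out, and each library left out.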

Additional observations from a re-analysis of the deposited data

How the results depend on the processing

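At an adjusted p under 0.05, 0 members were higher and 1 (RPS10, joined row) was lower in GapC9. The count of higher members became 1 with a pseudocount of 0.01 (RPL37), 2 with a filter of at least 1 FPKM (RPL37, RPSA), 4 after median scaling (RPL11, RPL37, RPL38, RPSA), 6 after GC correction (the same 4 with RPL27A and RPS2), 1 after quantile normalization and 1 after rescaling to the sum of all other rows (RPL37 in both). The count of lower members became 0 with joined rows left out. Without single libraries it ranged from 0 to 1, and RPS10 passed without GapNC replicate 1 only. Counts at the fold threshold were 0 under every alternative. At an unadjusted p under 0.05, 24 members were higher and 1 lower after median scaling and 24 and 2 after GC correction, against 8 and 2. After GC correction the fold changes of the members still correlated with GC content, with the opposite sign (Spearman 0.222). The median log2 fold change of large subunit members was 0.20 after median scaling and 0.18 after GC correction, that of small subunit members 0.145 and 0.099, and that of all members 0.17 and 0.16, and the medians without single libraries ranged from 0.01 to 0.16 for the large and from −0.031 to 0.115 for the small subunit. The difference in the members' share of summed FPKM ranged from 0.279 to 0.725 percentage points without single libraries and was 0.560 with pseudogene rows added. The causes of these changes were not tested, except that fewer libraries were fitted where one was left out.

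Libraries of the same replicate number deviated together with correlations of 0.102, 0.050 and 0.027. Replicates 1 and 2 correlated best with their own number and replicate 3 did not. These low values cannot settle whether the numbers pair the samples. With the replicate block, 0 members were lower and 0 higher at an adjusted p under 0.05, and 0 of all 16028 rows passed, with RPS10 at an adjusted p of 0.0653.

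Over all alternatives, 41 of 79 members kept the sign of their fold change and 38 did not, and 7 passed the adjusted threshold under at least 1 alternative. Without read counts, the counting error behind a single FPKM value is unknown. Members with small differences and overlapping libraries were not shown to be unchanged.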
